A study of Homo sapiens with 20 samples.

Results

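PGK1 (ENSG00000102144, chromosome X of GRCh38) was examined transcript by transcript in chromatin RNA and mRNA of human HEK293 and HEK293T cells, embryonic kidney lines in wide use. The gene was 1 of 57087 genes in the files, and 5 of the 217082 transcripts listed there belong to it. PGK1 was chosen by its estimated counts and TPM in the chromatin libraries labelled shDrosha, where its longest transcript was higher and shorter ones lower than in wt. The values of PGK1 in shDrosha against wt are therefore descriptions with no test. The tests below are of the other comparisons.

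PGK1 encodes phosphoglycerate kinase 1, the glycolytic enzyme that transfers a phosphate from 1,3-bisphosphoglycerate to ADP and so makes ATP. It is a housekeeping gene of nearly all cells and is also induced by hypoxia-inducible factors (HIF). The promoter of this gene is widely used in expression vectors, and processed copies of its mRNA exist as pseudogenes. RNA attached to chromatin is enriched in transcripts still being made, whereas a library of cellular RNA is mostly mature mRNA.

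Chromatin-associated RNA sequencing (chrRNA-seq) covered 2 wt, 2 shDicer, 2 shAgo2 and 2 shDrosha samples, all labelled HEK293. The shDicer and shAgo2 samples came from stable lines with a doxycycline-inducible hairpin and received 3 µg/ml doxycycline for 72 h. According to the study's methods, shDrosha was instead delivered by plasmids transfected with a lipid reagent. The vector is not named in the sources used here, nor do the labels say whether the wt or shDrosha samples received doxycycline or the wt samples a control transfection. In mRNA-seq, 3 wt (HEK293T) and 3 shDicer (HEK293 2B) samples both had 3 µg/ml doxycycline for 7 days. The lines of the 2 arms thus differ in more than the hairpin, and each knockdown rests on 1 hairpin system. The labels call the samples replicates without naming separate cultures, so p-values measure the spread between these samples, which may be technical.

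Estimated counts summed to between 17484067 and 21553760 in a chrRNA-seq sample and between 10216430 and 17215978 in an mRNA-seq sample. LIN28B, an HEK293 marker, was at 7.38 to 11.6 TPM (a share of the library corrected for transcript length) in chrRNA-seq and 15.6 to 20.0 TPM in mRNA-seq, and the T-cell gene CD3E was at most at 0.0709 TPM. The kidney factor PAX2 was at 4.94 to 10.8 TPM in chrRNA-seq and 0.0293 to 0.162 TPM in mRNA-seq. NEFL, a further HEK293 marker, ran from 2.61 to 40.7 TPM in chrRNA-seq and from 1.92 to 74.9 TPM in mRNA-seq. NEFM, also a marker, ran from 0.305 to 7.20 TPM in chrRNA-seq and from 0.0477 to 1.64 TPM in mRNA-seq. COL1A1, a collagen of fibroblasts, and the endothelial gene PECAM1 were at 10.5 to 19.5 and 2.50 to 5.16 TPM in chrRNA-seq, above their levels in mRNA-seq (at most 0.875 and 0.150 TPM). HBB, an erythroid gene, reached 34.8 TPM in mRNA-seq and 4.67 TPM in chrRNA-seq. DROSHA, the RNase that the transfected hairpin targets, had 146 and 153 CPM (counts scaled to library size with TMM) in the chromatin of wt and 166 and 148 CPM in that of shDrosha. This difference did not pass the test (log2 fold change of 0.069, adjusted p = 0.697 from edgeR), so DROSHA in this RNA fraction did not check the shDrosha label. DICER1 in the chromatin of shDicer did not pass either (log2 fold change of −0.18, adjusted p = 0.166 from edgeR). In mRNA-seq of shDicer, DICER1 did pass (−1.49, adjusted p = 1.28e-07 from edgeR). AGO2 in the chromatin of shAgo2 also passed (−0.62, adjusted p = 9.29e-05 from edgeR). The study also measured steady-state DROSHA RNA of these samples by qRT-PCR and shows a western blot of Drosha knockdown. Neither was analysed here.

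Each of the shorter transcripts shares sequence with the longest, and the borders show which bases can tell the transcripts apart. PGK1-201 (ENST00000373316, 78104248 to 78129295, plus strand) has 11 exons and is the longest, with 4887 bases in the files. It is the mRNA that encodes the enzyme. PGK1-205 (ENST00000491291, 78065216 to 78122903, 702 bases) starts at an upstream first exon and then follows PGK1-201 from exon 2 into exon 7. PGK1-204 (ENST00000477335, 78065188 to 78113844, 353 bases) has 4 exons and also starts upstream. PGK1-203 (ENST00000476531, 78124944 to 78126267, 960 bases) and PGK1-202 (ENST00000474281, 78122839 to 78123338, 307 bases) lie inside the gene and keep bases that are intron in PGK1-201. Windows of 56 bases of GRCh38 are shown for 3 of the transcripts, each joining 28 bases on either side of a border, written 5′ to 3′. In PGK1-201 and PGK1-205, capitals mark the exon before the shared exon that starts at 78109867. In PGK1-203, capitals mark the retained bases, which start at 78125052.
PGK1-201: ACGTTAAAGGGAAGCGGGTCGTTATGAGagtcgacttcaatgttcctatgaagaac
PGK1-205: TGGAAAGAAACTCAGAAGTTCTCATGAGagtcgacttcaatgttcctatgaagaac
PGK1-203: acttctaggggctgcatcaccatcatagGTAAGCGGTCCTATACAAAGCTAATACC

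The sequence that belongs to a single transcript was very uneven between them. Of the 4782 subsequences of 31 bases in PGK1-201, 3371 (70.5%) occurred in none of the other 4 PGK1 transcripts, and 3028 of these lie in 1 run at its 3′ end, with 153 in a run at its 5′ end. PGK1-205 had 25 of its own among 672 (3.72%), all across the border of the upstream exon shown above, and 620 (92.3%) were shared with PGK1-201. In PGK1-203, 301 of 930 (32.4%) were its own, and in PGK1-202, 80 of 277 (28.9%). Reads from the exons between them match PGK1-201 and PGK1-205 alike, and the split rests on reads elsewhere. These numbers come from GENCODE 44, in which PGK1-201 has 4812 bases, 75 fewer than in the files, and where these bases lie was not determined. Outside the gene, 624 (13.0%) of the subsequences of PGK1-201 occurred in other genes. Of these, 211 occurred in the processed pseudogene PGK1P1, 181 in the processed pseudogene PGK1P2 and 21 in PGK2. The genes that hold the rest were not identified.

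**Figure D1:**
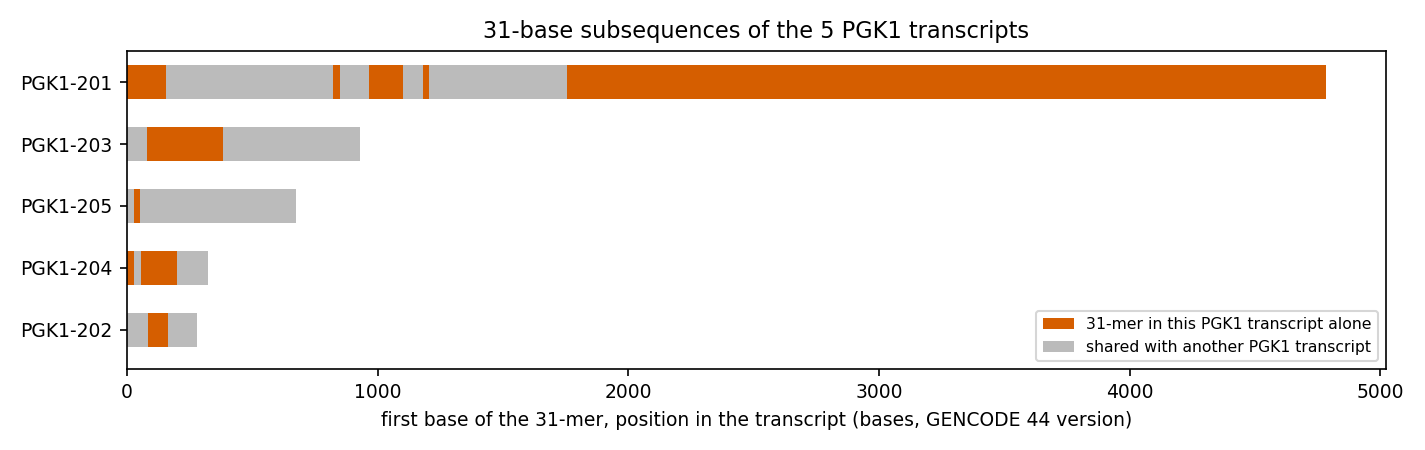
The 5 PGK1 transcripts drawn by position of the first base of each 31-base subsequence (bases from the 5′ end, GENCODE 44), with subsequences found in 1 PGK1 transcript alone in orange and shared ones in grey. PGK1-201 has 3028 of its own in a run at the 3′ end, whereas PGK1-205 has 25.

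Summed over its transcripts, PGK1 was higher in both shDrosha samples than in each of the other 6 chrRNA-seq samples. The gene had 3546 and 3670 estimated counts in wt, 2724 and 3904 in shDicer, 3108 and 3075 in shAgo2 and 19807 and 17211 in shDrosha. On the CPM scale, it had 210.3 and 232 in wt against 1131 and 937 in shDrosha, a fold of 4.68. The edgeR log2 fold change was 2.23 with a standard error (SE) of 0.152, given without a test, and among the 32874 tested genes it ranked 127th by log2 fold change. Summed TPM gave a smaller difference, 88.8 and 98.5 in wt against 125 and 126 in shDrosha, a fold of 1.34. Counts rebuilt from TPM and transcript lengths gave a log2 fold change of 0.49. How far PGK1 was raised thus depended on the scale, and the individual transcripts show where the scales part.

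PGK1-201, the coding mRNA, carried the higher count. It had 2562 and 2540 estimated counts in wt, 1865 and 2726 in shDicer, 2237 and 2251 in shAgo2 and 19659 and 17078 in shDrosha. Per base of effective length, PGK1-201 had 0.546 and 0.542 counts in wt and 4.19 and 3.64 in shDrosha. Its CPM was 141 and 149 in wt and 1042 and 869 in shDrosha, a fold of 6.59 and a log2 fold change of 2.72 (SE 0.198, no test). Both scales placed the shDrosha samples above wt here, with 18.3 TPM in each wt sample against 114 in each shDrosha sample.

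PGK1-205, with the upstream first exon, went the other way. The files list it at 664 and 702 estimated counts in wt, 458 and 675 in shDicer, 481 and 479.6 in shAgo2, and at 0 in both shDrosha samples. If the estimates were direct counts with a floor of 3 per library, it would be at least 239-fold lower in shDrosha than in wt. An estimated count of 0 is the result of dividing shared reads, so this value is not a lower bound on the fold. Besides the 25 subsequences of its own, PGK1-205 has 27 shared with PGK1-204 that PGK1-201 lacks, and the estimates in wt and in shDrosha depend on how reads were divided with so few of them.

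The transcripts that keep intron bases also had lower estimated counts in shDrosha. PGK1-203 had 262 and 362 estimated counts in wt and 113 and 100.1 in shDrosha, a log2 fold change of −1.69 (SE 0.237, no test). For PGK1-202, the counts were 57.9 and 64.7 in wt and 34.8 and 32.1 in shDrosha, a log2 fold change of −1.01 (SE 0.190). Of their subsequences, 67.6% in PGK1-203 and 71.1% in PGK1-202 were shared with PGK1-201. Both estimates thus depend on how shared reads were divided, and whether RNA with these intron bases fell was not tested. Neither PGK1-203 nor PGK1-202 overlapped between the 2 groups, but lower short transcripts were part of the choice of PGK1. The share of all transcripts without overlap was not counted. PGK1-204 had at most 1.18 estimated counts in any of the 14 samples, under the floor of 3 counts, and did not pass the filter on low counts. Of the 5 PGK1 transcripts, 4 passed this filter, 1 of them higher and 3 lower in shDrosha. Such opposite shifts were present elsewhere, since 1408 of the 15379 genes with several tested transcripts (9.16%) had 1 transcript up and another down by at least 1 on the log2 scale in shDrosha.

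**Figure D2:**
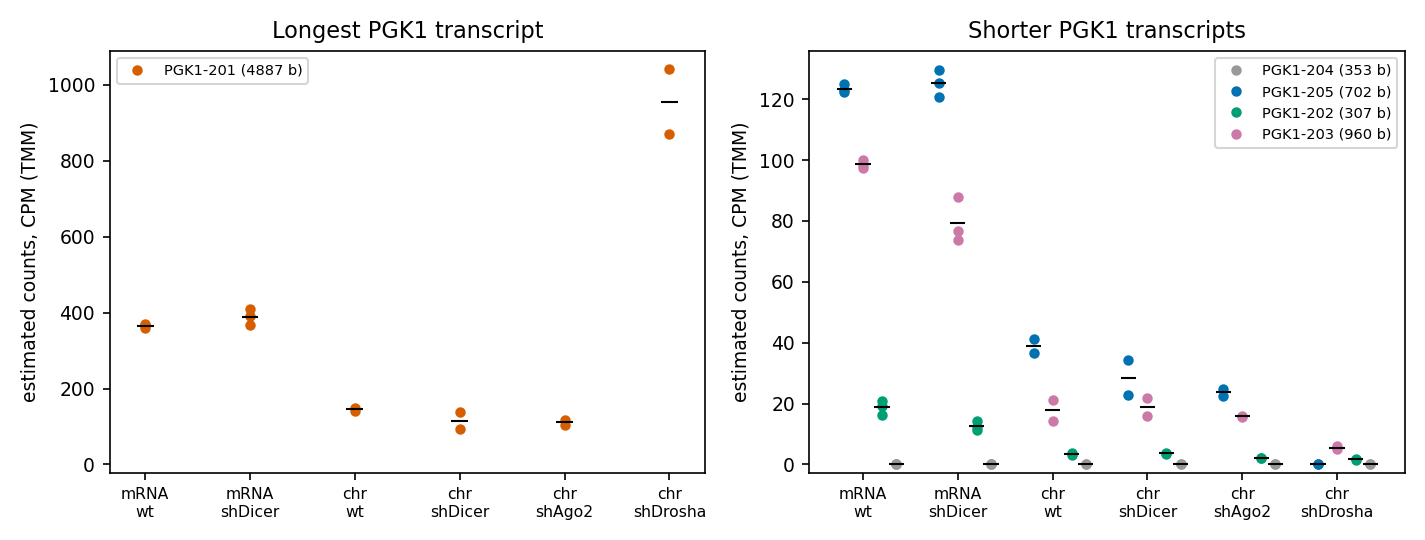
Estimated counts of each PGK1 transcript in CPM after TMM scaling (linear axes), with PGK1-201 on the left and the 4 shorter transcripts on the right, 1 point per sample and a black line at the group mean. PGK1-201 was at 1042 and 869 CPM in shDrosha against 141 and 149 in chrRNA-seq wt, and PGK1-205 was listed at 0 in shDrosha.

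The gain of PGK1-201 was much larger than the loss of the other transcripts in CPM and moderately larger in TPM. In CPM, PGK1-201 was higher by 811 in shDrosha than in wt while the other transcripts together were lower by 52.9, a ratio of 15.3. In TPM, it was higher by 95.6 while the others were lower by 63.8, a ratio of 1.50. The average length behind a PGK1 molecule also differed, since the mean effective length, weighted by TPM, was 1340 and 1262 bases in wt and 4298 and 4286 in shDrosha. Among all 217082 transcripts, PGK1-201 had the 5th largest gain in CPM. By log2 fold change, it ranked 1662nd of the 114057 tested transcripts and 12th of the 25676 whose mean log2 CPM was 3 or more.

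PGK1-201 held between 68.5 and 73.2% of the PGK1 counts in the 6 wt, shDicer and shAgo2 samples of chrRNA-seq. In shDrosha it held 99.3% (95% Wilson interval 99.1 to 99.4%, counting error only) and 99.2% (99.1 to 99.3%). By TPM, its share was 20.6 and 18.6% in wt and 91.0 and 90.6% in shDrosha. PGK1-205 was the most abundant PGK1 transcript per length in the other 12 samples, with 39.2 to 49.7% of the PGK1 TPM. On both scales, the 2 shDrosha samples had a higher share of PGK1-201 than the other 12 samples.

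**Figure D3:**
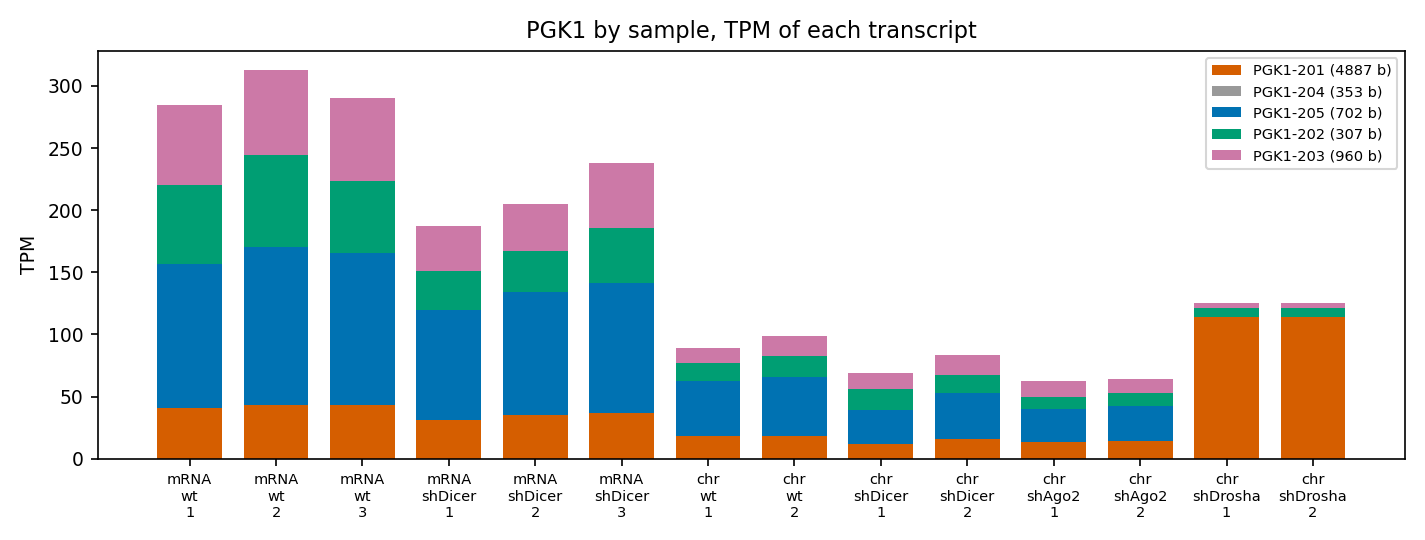
Stacked bars of the TPM of each PGK1 transcript in the 14 samples, starting at 0. The summed TPM of shDrosha (125 and 126) was above that of chrRNA-seq wt (88.8 and 98.5) by less than the counts, and PGK1-201 made up 91.0 and 90.6% of it.

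In the knockdowns that the choice of PGK1 did not use, no tested PGK1 transcript passed the threshold. In chrRNA-seq of shDicer, the gene had 143 and 207 CPM against 210.3 and 232 in wt, a log2 fold change of −0.34 (SE 0.148, adjusted p = 0.0958 from edgeR, threshold 0.005). Both shDicer samples were below both wt samples, but they differed more from each other than the nearer of them from wt. Without shDicer replicate 2, the log2 fold change was −0.63 and the call was made (adjusted p = 0.00274), with the remaining sample assumed to vary like the other groups. Of all tested genes, 11.0% were higher and 10.5% lower in this comparison, and 1.97% of transcripts were called. For PGK1-201 in shDicer, the log2 fold change was −0.33 (SE 0.187, adjusted p = 0.301 from edgeR).

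In shAgo2, PGK1 was at 153 and 168 CPM, below both wt samples, with a log2 fold change of −0.46 (SE 0.148, adjusted p = 0.0255 from edgeR, threshold 0.005). The call depended on the fit, as the adjusted p was 0.00438 without the low-count filter, 1.42e-05 with the 2 groups alone, and 0.00327 and 0.00276 without shDicer replicate 1 or 2. In this comparison, 12.5% of genes were higher, 12.1% lower and 2.68% of transcripts called. PGK1-201 had a log2 fold change of −0.39 (adjusted p = 0.216 from edgeR), PGK1-205 one of −0.71 (0.0739) and PGK1-202 one of −0.64 (0.0640). The 4 tested transcripts were lower by log2 fold change in shAgo2, without passing the test.

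In mRNA-seq, neither PGK1 nor any of its transcripts passed the test between shDicer and wt. The gene had 665, 658 and 663 CPM in wt and 592, 628 and 587 in shDicer, a log2 fold change of −0.14 (SE 0.0638, adjusted p = 0.0904 from edgeR, threshold 0.001). All 3 shDicer samples were below the wt samples. At this threshold, 15.6% of genes were higher and 14.2% lower, and 0.525% of transcripts were called. PGK1-201 had a log2 fold change of 0.088 (SE 0.0563, adjusted p = 0.364), and PGK1-205 one of 0.021 (adjusted p = 0.842). PGK1-202 and PGK1-203, with retained intron bases, had −0.58 (adjusted p = 0.0564) and −0.31 (adjusted p = 0.0499).

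The share of PGK1-201 in the mRNA-seq counts was 60.3, 59.6 and 60.9% in wt and 64.5, 65.6 and 62.2% in shDicer. These ranges did not overlap, and the means differed by 3.83 percentage points (two-sided exact permutation test, p = 0.1, the smallest p that 3 against 3 samples allow). PGK1 summed to 285, 313 and 290.1 TPM in wt and 188, 205 and 238 TPM in shDicer, also without overlap (exact permutation p = 0.1). Over the 3 relations tested this way, the third being the share by TPM, the adjusted p was 0.1 for each.

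The copies of PGK1 examined here, PGK1P1, PGK1P2 and PGK2, had low counts in all samples. Further genes that hold subsequences of PGK1-201 were not looked at. PGK1P1, a processed pseudogene, was at 1.42 and 2.27 CPM in wt and 3.08 and 1.91 CPM in shDrosha, with overlapping samples (log2 fold change of 0.43, adjusted p = 0.495 from edgeR). PGK2, the testis form of the enzyme, and PGK1P2 did not pass the low-count filter. Because these copies share bases with PGK1-201, their values are uncertain. In shDrosha, 1.19% of tested genes were called higher and 2.18% lower.

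The other enzymes of glycolysis were mostly lower in shDrosha. Of 17 glycolytic genes tested, 12 fell, 1 rose and 4 did not pass, where 2.18% of all tested genes were lower and 1.19% higher. Their median log2 fold change was −0.56 against 0.0049 over all tested genes. At an unadjusted p under 0.05, 13 were lower and 1 higher, against 10.3 and 8.83% of all tested genes. DESeq2 called 11 lower and 0 higher, against 4.89 and 1.67% of all genes to which it gave an adjusted p. GAPDH, which makes the substrate of phosphoglycerate kinase, had 438 and 469 CPM in wt and 273 and 201 CPM in shDrosha, a log2 fold change of −0.93 (adjusted p = 0.00807 from edgeR). Its samples did not overlap between the groups. ALDOA, which cleaves fructose 1,6-bisphosphate, fell by 0.86 on the log2 scale, ENO1, an enolase, by 0.82 and LDHB, a lactate dehydrogenase subunit, by 0.79. ENO2, the neuronal enolase, rose by 0.47. Fits left with 1 wt sample lost the lower glycolytic calls, as they lost most calls over all tested genes. A block for the replicate number reduced the number of lower glycolytic genes to 5. It was 7 without either shAgo2 sample and 4 without shDrosha replicate 2.

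The counts of the same 17 genes in the other comparisons are given beside the shares of all tested genes, and differences between the comparisons were not tested. In chrRNA-seq of shDicer, 3 rose and 2 fell, where 11.0% of all tested genes were higher and 10.5% lower. In that of shAgo2, 2 rose and 9 fell, against 12.5 and 12.1% of all tested genes. Leaving out 1 sample at a time gave 0 to 3 lower genes in shDicer and 3 to 10 in shAgo2. In mRNA-seq of shDicer, 9 rose and 2 fell, with a median of 0.38, against 15.6 and 14.2% of all tested genes. All chrRNA-seq comparisons share the same wt samples.

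The tested genes that HIF induces, as it does PGK1, had log2 fold changes from −0.26 to 0.75 in shDrosha. Of 13 tested, ADM, which encodes the peptide adrenomedullin, rose by 0.75 (adjusted p = 0.0123 from edgeR) and none fell, where 1.19% of all tested genes were called higher and 2.18% lower. The median of the 13 was 0.10. At an unadjusted p under 0.05, 3 were higher and 1 lower, where 8.83% of all tested genes were higher and 10.3% lower. DESeq2 called 1 higher and 0 lower, against 1.67 and 4.89% of all genes to which it gave an adjusted p. In the same samples, VEGFA, a growth factor for vessels, had −0.26 and EGLN3, a HIF prolyl hydroxylase, 0.18, neither past the threshold. The call of ADM was not made when either wt sample was left out, and 3 genes were higher without either shDicer sample.

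Other human genes whose promoters are used in expression vectors showed no common direction in shDrosha. Of 8 tested, 2 were higher and 2 lower at an unadjusted p under 0.05, against 8.83 and 10.3% of all tested genes. DESeq2 called 1 higher and 0 lower of the 5 to which it gave an adjusted p, against 1.67 and 4.89% of all such genes. By adjusted edgeR p, RPPH1 (0.86) and RN7SK (0.66), both transcribed by RNA polymerase III, rose and EEF1A1, a translation elongation factor, fell by 0.83. Over all tested genes, 1.19% were called higher and 2.18% lower. ACTB, cytoplasmic actin, had −0.25 without a call. RNU6-1, RNU6-2 and RNU6-9, near-identical U6 copies, had equal values of 0.54 and cannot be told apart. None of these 3 calls was made with the replicate block or without either wt sample.

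No tested gene around PGK1 passed the threshold in shDrosha. Of 27 genes in the files within 1 Mb of the annotated PGK1 gene, 12 were tested and 0 were called by edgeR, against 1.19% higher and 2.18% lower over all tested genes. Their log2 fold changes ran from −0.23 to 0.78 with a median of 0.091. At an unadjusted p under 0.05, 2 were higher and 1 lower, against 8.83 and 10.3% of all tested genes. DESeq2 called 0 of the 7 to which it gave an adjusted p, against 1.67% higher and 4.89% lower over all such genes. TAF9B, a subunit of transcription factor TFIID whose gene ends 0.5 kb downstream on the opposite strand, had 19.5 and 19.3 CPM in wt and 16.1 and 18.9 CPM in shDrosha, a log2 fold change of −0.15 (adjusted p = 0.551). ATP7A, a copper transporter that overlaps the annotated PGK1 locus, had 0.078 in shDrosha and rose by 1.20 in shAgo2 (adjusted p = 4.24e-06 from edgeR). COX7B, a cytochrome oxidase subunit, had 0.095 and MAGT1, a magnesium transporter, −0.23.

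The genes whose pattern over the 8 chrRNA-seq samples was most like that of PGK1 changed far less. By Pearson correlation of log2 CPM over 8 samples and 15840 genes, these were ENSG00000290924 (r = 0.979), FASTKD1 (0.978), PLEKHA1 (0.976), IPMK (0.976) and FAM149B1 (0.970). Their log2 fold changes in shDrosha were between 0.26 and 0.41. The correlations are descriptions, since the samples share libraries and wt controls.

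Whether the PGK1-201 counts in shDrosha come from the chromosomal gene, from sequence on the transfected plasmid or from another division of reads among isoforms was not tested. The files give 1 value per transcript and keep no positions of reads. Plasmid transfection and the hairpin against DROSHA cannot be told apart either, because both shDrosha samples received both.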

How the data were processed

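RNA of 14 samples with files was used, and small RNA-seq of 6 further samples was not analysed here. According to the study's methods, the authors quantified reads with kallisto (stranded setting) against cDNA and non-coding RNA of Ensembl release 89. The deposited estimated counts are not normalized and are fractional, because reads that several transcripts share are divided among them. The deposited TPM are scaled by effective length and to the same total in each sample. The mRNA-seq labels give polyA RNA, whereas the methods describe removal of ribosomal RNA. In mRNA-seq wt, the RNA polymerase III transcripts RN7SK and RPPH1 had means of 53885 and 22072 TPM, and GAPDH one of 790 TPM. Which description holds was not tested.

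Transcripts were assigned to genes with GENCODE 44 on GRCh38, which held 193697 of 217082 identifiers (89.2%). Estimated counts were rounded for the fits, per gene as sums and per transcript over all transcripts. Low counts were removed with filterByExpr, which left 32874 genes and 114057 transcripts in chrRNA-seq and 15090 and 45738 in mRNA-seq. edgeR 4.0.16 in R 4.3.3 (TMM, quasi-likelihood test, Benjamini-Hochberg adjustment) was run with 1 fit for all 8 chrRNA-seq samples and 1 for the 6 mRNA-seq samples. Thresholds on the adjusted p followed the study's methods, 0.001 for mRNA-seq, 0.005 for shDicer and shAgo2 and 0.05 for shDrosha in chrRNA-seq. On simulated counts for the shDicer comparisons, the fits recovered 200 of 200 changed genes in chrRNA-seq and 199 in mRNA-seq, and 196 and 200 of 200 changed transcripts. The changes were near 2 on the log2 scale, with 1 small spread for genes and transcripts alike. In the data, the fitted biological coefficient of variation was 0.074 (chrRNA-seq) and 0.109 (mRNA-seq) for genes. For transcripts it was 0.261 and 0.522, above the simulated spread, so recovery of transcripts was not assessed at their own spread. A floor of 3 counts corresponds to 0.139 to 0.172 CPM in chrRNA-seq and 0.174 to 0.294 CPM in mRNA-seq. It covers counting error only, since PCR copies of a molecule cannot be recognised.

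PGK1, the gene lists (glycolysis, HIF-responsive, vector promoters, gene copies, neighbours within 1 Mb, targeted genes) and the tests were chosen with earlier results of these data known. From each list, the members named are those with the largest and smallest log2 fold change that passed, or the most abundant, as well as further members named for context after their values were seen. Alternatives were DESeq2 1.42.0, its size factors (RLE), no low-count filter, a replicate block, counts scaled from TPM, fits of 2 groups alone and leaving out each sample. A member of the vector promoter list and the border sequences of 2 transcripts are not reported here.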

Additional observations from a re-analysis of the deposited data

Results flagged for a closer look

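Some genes moved in opposite directions against the same wt samples in different knockdowns, with every knockdown sample on 1 side of both wt samples. The difference itself was not tested, and the shared wt samples tie the comparisons together. For PGK1, the log2 ratio of mean CPM to wt was higher in shDrosha than in shDicer by 2.56 and than in shAgo2 by 2.69. For its transcript ENST00000373316 (PGK1-201), these differences were 3.05 and 3.11. PGK1 was chosen for its level in shDrosha, so they are descriptions. Of the glycolytic genes, GPI, which makes fructose 6-phosphate, was lower in shDrosha than in shDicer (−1.16) and shAgo2 (−0.88) on this scale. PFKP, a phosphofructokinase, had −1.32 and −1.20.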

How the results depend on the processing

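Both PGK1 and PGK1-201 were higher in shDrosha under all alternatives, but counts scaled from TPM gave a log2 fold change of 0.49 for the gene in place of 2.23. Leaving out 1 sample at a time gave 2.08 to 2.36 for the gene and 2.58 to 2.85 for PGK1-201. For the tests of the gene, this range was −0.63 to −0.094 in shDicer and −0.54 to −0.40 in shAgo2, with the lowest adjusted p at 0.00274 for shDicer, and the shAgo2 call was made without the low-count filter (−0.47), with the 2 groups alone (−0.46), and without shDicer replicate 1 or 2 (adjusted p of 0.00327 and 0.00276). No alternative called PGK1-201 in shDicer or shAgo2, or PGK1 in mRNA-seq. The direction of 2 uncalled transcripts turned when a sample was left out, ENST00000474281 in shDicer (−0.033 to 0.23) and ENST00000476531 in shDicer (−0.17 to 0.40) and in shAgo2 (−0.43 to 0.14). The number of lower glycolytic genes in shDrosha was 5 with the replicate block and 4 with counts scaled from TPM, and 0 to 13 when a sample was left out.

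By TPM, the share of PGK1-201 was 14.3% in mRNA-seq wt, 16.4% in mRNA-seq shDicer, 19.6% in chrRNA-seq wt, 18.3% in shDicer, 21.9% in shAgo2 and 90.8% in shDrosha. Of the estimated counts over transcripts longer than 500 bases, PGK1-201 held 62.2% in mRNA-seq wt, 70.8% in chrRNA-seq shDicer, 73.7% in shAgo2 and 99.4% in shDrosha. Leaving out a sample gave 99.2 to 99.3% of all PGK1 counts in shDrosha.

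With the replicate number as a block, the log2 fold change of PGK1 was 2.23 in shDrosha, −0.34 in shDicer, −0.46 in shAgo2 and −0.14 in mRNA-seq, and that of PGK1-201 was 2.73, −0.34, −0.39 and 0.087. No PGK1 call changed with it. Deviations of same-numbered samples correlated at 0.106, 0.098 and 0.245 in mRNA-seq, where each sample correlated best with its own number, and in chrRNA-seq at 0.298 for wt with shDicer, 0.077 with shAgo2 and −0.415 with shDrosha. Not every mRNA-seq pair was over 0.1, chrRNA-seq has 2 pairs per comparison and the labels name no shared batch, so the numbers were not taken as pairs. In shDrosha, 1110 genes were called without a block, 452 with it and 3111 with the shDrosha numbers crossed, an alternative chosen after seeing the data. The 3-count floor and the division of shared reads limit PGK1-202, PGK1-204 and PGK1-205, and the division also limits PGK1-203.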
